A study of Mus musculus with 8 samples.

Results

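The genes described are 10 antioxidant and metal-binding genes, namely the superoxide dismutases Sod1, Sod2 and Sod3, catalase (Cat), the glutathione peroxidases Gpx1, Gpx3 and Gpx4, haem oxygenase 1 (Hmox1) and the metallothioneins Mt1 and Mt2. They were chosen by symbol, and all 10 were found once each among the 32285 genes of the deposited matrix of raw UMI counts. A UMI (unique molecular identifier) marks 1 captured RNA molecule, so PCR copies count once. The cells came from the ascending thoracic aorta, the stretch next to the heart, of wildtype mice, 1 each at 81, 84 and 88 weeks of age, dissociated for 60 min at 37 °C with type II collagenase (10 mg/mL) and elastase (1 mg/mL). The suspension went through a 70 µm strainer and a dead cell removal, and about 15000 viable cells were loaded for 3′ libraries. Each animal was marked with its own hashtag, a barcoded antibody, before pooling, and the 8 deposited libraries (4 of gene expression and 4 of hashtags) are parts of that 1 pool. With 1 animal at each age and no young animal, ages were not compared. The 3 sets of cells with 1 hashtag served as replicates for comparisons between cell classes, which measure the spread between these 3 animals in 1 pool.

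Superoxide dismutases turn superoxide into hydrogen peroxide, SOD1 in the cytosol, SOD2 in the mitochondrial matrix and SOD3 outside the cell, where it is bound to the matrix of the arterial wall. Catalase in peroxisomes and the selenium-containing glutathione peroxidases remove the peroxide, GPX1 in the cell, GPX3 as a secreted enzyme and GPX4 on lipid peroxides in membranes. Haem oxygenase 1 degrades haem to biliverdin, carbon monoxide and iron and is classically induced through the transcription factor NRF2, and the metallothioneins are small cysteine-rich proteins that bind zinc and copper and are switched on by the metal-sensing factor MTF1.

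After filters 10408 cells with at most 1 hashtag were clustered, with a median of 8757 UMIs per cell (range 1016 to 104654). The 10 genes and the redox gene lists were left out of the clustering. The sets held 569 cells and 5200412 UMIs at 81 weeks, 2554 cells and 18049453 UMIs at 84 weeks, and 1052 cells and 8192038 UMIs at 88 weeks. Classes were named from marker genes as smooth muscle-like (5209 cells), T cell-like (1859), fibroblast-like (1305), endothelial-like (1111), erythroid-like (399), pericyte-like (122), epithelial-like (71), mesothelial-like (51) and Schwann-like (17). The T cell-like class held a cluster of 840 cells led by Rag1 and Cd8b1, and clusters of 510 and 292 cells led by Hist1h2ap and Mki67. The epithelial-like class joined 45 cells led by Bpifa1 and Scgb1a1 with 26 led by Tbata and Prss16. RNA of other cells was present throughout: 56.1% of all smooth muscle-like cells held a UMI of at least 1 of 8 T cell genes. In the tested sets of 81, 84 and 88 weeks the share was 61.4%, 86.4% and 66.9%. A smooth muscle-like cluster of 449 cells had T cell genes as its next class. It supplied 23, 279 and 73 of the 158, 435 and 245 smooth muscle-like cells in those sets. Levels are CPM, UMIs of a gene per 1000000 UMIs of all genes. For 3′ counts of molecules these do not scale with gene length. Fewer cells with a gene and less RNA per cell cannot be told apart in a summed level.

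The wall cells differed in which of the enzymes they held. Sod3 and Gpx1 were highest in smooth muscle-like cells among the 3 wall classes, Gpx3 was held by fibroblast-like cells, Sod1 was highest in endothelial-like cells, and both metallothioneins were several-fold lower in endothelial-like cells than in smooth muscle-like and fibroblast-like cells. Gpx4 and Cat did not pass the test between these classes. The plot of levels by class shows these patterns in each of the 3 sets.

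**Figure D1:**
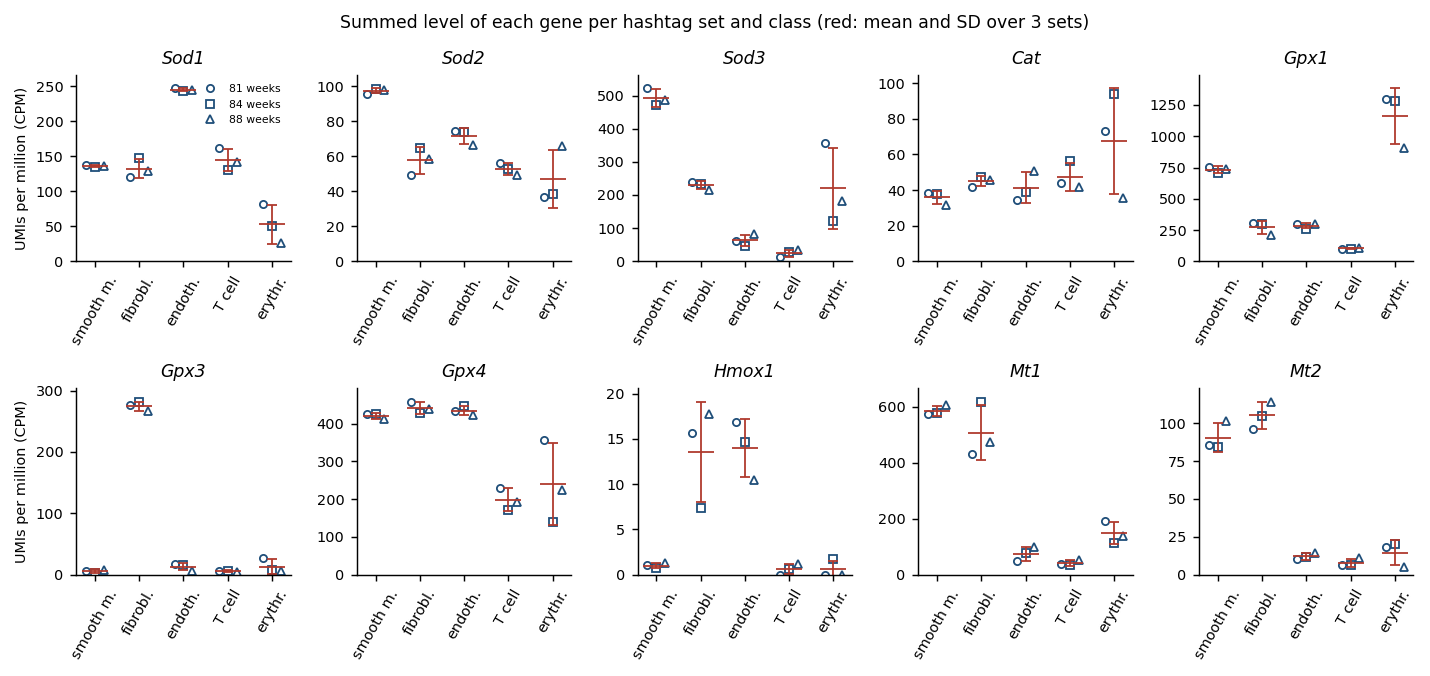
CPM of each of the 10 genes (1 panel each, linear axis from 0) in 5 cell classes. Open symbols are the sums of the sets of 81, 84 and 88 weeks, and the red bar is their mean with its SD (n = 3). Endothelial-like sums of Sod3, Mt1 and Mt2 lie below those of the other wall classes shown, fibroblast-like sums of Gpx3 lie above, and Gpx4 lies between 412 and 459 CPM in all 9 sums of the smooth muscle-like, fibroblast-like and endothelial-like cells.

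Sod3, the extracellular dismutase (ENSMUSG00000072941, chromosome 5, 52363804 to 52369738 in the GRCm38.p6 annotation), stood at 522, 471 and 486 CPM in smooth muscle-like cells of the 81, 84 and 88 week sets. In fibroblast-like cells the corresponding values were 239.8, 233 and 216 CPM, and in endothelial-like cells 60.0, 47.3 and 81.3 CPM. The 3 classes did not overlap. The log2 fold change of endothelial-like over smooth muscle-like cells was -2.99 (SE 0.13, adjusted p = 4.38e-09 by the quasi-likelihood F test of edgeR, adjusted by Benjamini and Hochberg's method across every gene tested, lower in 3 of 3 sets). Smooth muscle-like cells exceeded fibroblast-like cells by 1.17 (log2, SE 0.10, edgeR adjusted p = 1.06e-09). Endothelial-like cells were below fibroblast-like cells by a log2 fold change of -1.90 (SE 0.17, edgeR adjusted p = 7.1e-07). Keeping cells called as doublets brought the endothelial-like differences to -2.08 against smooth muscle-like cells and -1.09 against fibroblast-like cells, both still called.

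Sod1, the cytosolic dismutase (ENSMUSG00000022982, chromosome 16, 90220762 to 90226333), was highest in endothelial-like cells, at 247.1, 243 and 245 CPM. Smooth muscle-like cells held 138, 135 and 136 CPM and fibroblast-like cells 119.9, 147 and 129.6 CPM. No endothelial-like sum overlapped with either class. Endothelial-like cells were higher by a log2 fold change of 0.84 over smooth muscle-like cells (SE 0.08, edgeR adjusted p = 5.13e-06) and 0.88 over fibroblast-like cells (SE 0.14, edgeR adjusted p = 0.000115). Both passed the p threshold of 0.05 and missed the required absolute log2 fold change of 1, so neither was called.

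Sod2, the mitochondrial dismutase (ENSMUSG00000006818, chromosome 17, 13007839 to 13018119), was at 95.8, 98.6 and 97.6 CPM in smooth muscle-like cells, above endothelial-like cells (74.6, 73.9 and 66.3 CPM) and fibroblast-like cells (49.5, 64.8 and 58.4 CPM). The smooth muscle-like sums did not overlap with those of the other 2 classes. The log2 fold change of smooth muscle-like over fibroblast-like cells was 0.79 (SE 0.15, edgeR adjusted p = 8.73e-05) and that of endothelial-like over smooth muscle-like cells was -0.45 (SE 0.10, edgeR adjusted p = 0.00289), neither of the size needed for a call. Over all cells pooled, the order of classes for Sod2 began with Schwann-like (152 CPM), pericyte-like (138 CPM), epithelial-like (115 CPM) and mesothelial-like cells (104 CPM), whose neighbouring 95% Poisson intervals overlapped.

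Cat (ENSMUSG00000027187, chromosome 2, 103453904 to 103485153) was low in every class. The wall sums lay between 31.6 and 50.9 CPM, and the log2 fold changes of -0.26 to 0.22 in the 3 wall comparisons did not pass the test (edgeR adjusted p from 0.294 to 0.614). The class order ran from epithelial-like cells (70.8 CPM pooled) to Schwann-like cells (32.5 CPM pooled), and 7 of the 8 neighbouring pairs in it had overlapping intervals. Catalase is the peroxisomal enzyme, and the peroxisome list (20 genes of biogenesis and oxidases) is given with the other lists.

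Gpx1, the intracellular glutathione peroxidase (ENSMUSG00000063856, chromosome 9, 108339080 to 108340342), stood at 756, 706 and 739 CPM in smooth muscle-like cells. It was at 305, 298 and 211 CPM in fibroblast-like cells and at 297, 259 and 295 CPM in endothelial-like cells. The smooth muscle-like sums lay above all others in the wall, and the fibroblast-like and endothelial-like sums overlapped. Log2 fold changes were 1.51 for smooth muscle-like over fibroblast-like cells (SE 0.11, edgeR adjusted p = 3.83e-11) and -1.38 for endothelial-like over smooth muscle-like cells (SE 0.08, edgeR adjusted p = 3.52e-08). Endothelial-like and fibroblast-like cells differed by 0.07 (log2, SE 0.15, edgeR adjusted p = 0.753).

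Gpx3, the secreted glutathione peroxidase (ENSMUSG00000018339, chromosome 11, 54902854 to 54910387), was at 276.3, 281 and 267 CPM in fibroblast-like cells. Smooth muscle-like cells held 6.28, 2.93 and 8.13 CPM and endothelial-like cells 16.8, 16.3 and 5.98 CPM. Fibroblast-like cells were far above both, with log2 fold changes of -5.66 for smooth muscle-like over fibroblast-like cells (SE 0.19, edgeR adjusted p = 5.2e-18) and -4.40 for endothelial-like over fibroblast-like cells (SE 0.22, edgeR adjusted p = 1.42e-09). The call of endothelial-like over smooth muscle-like cells (log2 fold change 1.26, SE 0.44, edgeR adjusted p = 0.0314) held in 2 of 3 sets and was lost with DESeq2 (adjusted p = 0.147) and without the 84 week set (0.42, edgeR adjusted p = 0.488). With each cell thinned to 1000 UMIs, Gpx3 had a UMI in 21.8% of fibroblast-like cells (47.2% unthinned), 1.26% of endothelial-like cells (6.12% unthinned) and 0.44% of smooth muscle-like cells (4.22% unthinned). T cell-like cells, taken as a class that should lack the gene, gave 0.97% (2.58% unthinned), so the smooth muscle-like share was not above background. The exact binomial 95% interval of the endothelial-like share, 0.69% to 2.11%, overlapped with that of T cell-like cells, 0.57% to 1.53% (counting error only, median depths 4187 and 3788 UMIs), while the pooled levels of 12.1 CPM (95% Poisson interval 9.51 to 15.1) and 6.12 CPM (interval 4.62 to 7.95) did not. Outside these classes, mesothelial-like cells held 718 CPM of Gpx3 (95% Poisson interval 651 to 789), above fibroblast-like cells pooled (335 CPM, interval 324 to 347) and pericyte-like cells (203 CPM, interval 176 to 234).

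Gpx4, the membrane lipid peroxidase (ENSMUSG00000075706, chromosome 10, 80047166 to 80056439), was at 426, 425 and 412 CPM in smooth muscle-like cells, 459, 428 and 439.5 CPM in fibroblast-like cells and 435, 447 and 423 CPM in endothelial-like cells. The 3 classes overlapped, and the log2 fold changes were 0.04 (SE 0.08), 0.02 (SE 0.10) and -0.01 (SE 0.12), with edgeR adjusted p from 0.667 to 0.97. T cell-like cells lay lower, at 231, 172 and 194 CPM. The RefSeq gene table lists 2 Gpx4 pseudogenes, Gpx4-ps1 and Gpx4-ps2, and how reads that match both were counted is not given in the sources used here.

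Hmox1, the inducible haem oxygenase (ENSMUSG00000005413, chromosome 8, 75093618 to 75100593), was the rarest of the 10 genes. Endothelial-like cells held 16.8, 14.6 and 10.5 CPM, fibroblast-like cells 15.6, 7.30 and 17.8 CPM and smooth muscle-like cells 1.05, 0.69 and 1.25 CPM. Both higher classes lay above smooth muscle-like cells in every set and overlapped with each other. The log2 fold change was 3.82 for endothelial-like over smooth muscle-like cells (SE 0.39, edgeR adjusted p = 6.64e-06) and -3.52 for smooth muscle-like over fibroblast-like cells (SE 0.55, edgeR adjusted p = 9.27e-06). Thinned cells with a UMI were 1.26% of endothelial-like cells, 1.38% of fibroblast-like cells, 0.17% of smooth muscle-like cells and 0.05% of T cell-like cells (6.75%, 7.66%, 1.77% and 0.32% unthinned). The highest level of all was in a macrophage-like sub-cluster of 30 cells led by C1qa, C1qb and C1qc, at 120 CPM from 21 UMIs (95% Poisson interval 74.2 to 183). In that sub-cluster the sums of 84 and 88 weeks stood at 66.7 and 170 CPM, while the 81 week set had 5 cells and was not summed. No UMI of Hmox1 was found in mesothelial-like cells, which allows up to 6.20 CPM by the 95% Poisson interval.

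The metallothionein genes lie side by side on chromosome 8 (GRCm38.p6), Mt2 (ENSMUSG00000031762) from 94172618 to 94173567 and Mt1 (ENSMUSG00000031765) from 94178883 to 94180327, with 5315 bases between them. Because the pair moved together, and since 8 of the 10 genes matched a window (not Sod3 and Hmox1), the RefSeq promoter windows of both (250 bases before to 50 after the start site the table gives) were searched on both strands for the core of the metal response element, TGCACNC or TGCGCNC, at which MTF1 binds. The Mt2 window (94172368 to 94172667, plus strand) held 4 matches and the Mt1 window (94178839 to 94179138, plus strand) held 3. Of 32851 promoter windows of the same length, 25.7% held at least 1 match, 1.97% at least 3 and 0.517% at least 4. The RefSeq windows of Sod1, Sod2, Cat, Gpx1, Gpx3 and Gpx4 (4 starts) held 0 matches. The first line below is the whole stretch before the Mt2 start site, and the other 4 are the remaining Mt2 match and the 3 Mt1 matches with 5 bases on each side. Capitals mark the matched core, which reads in reverse complement in the last match of the first line and in the line that follows it.
Mt2 upstream, chr8:94172368-94172617 (+): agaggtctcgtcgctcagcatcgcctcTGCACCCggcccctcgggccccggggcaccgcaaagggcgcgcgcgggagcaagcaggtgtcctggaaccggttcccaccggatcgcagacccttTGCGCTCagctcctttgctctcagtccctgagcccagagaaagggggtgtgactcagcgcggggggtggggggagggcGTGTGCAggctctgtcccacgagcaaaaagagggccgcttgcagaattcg
Mt2 match 4, chr8:94172617-94172633 (+): gggtcGTGCGCAggccc
Mt1 match 1, chr8:94179061-94179077 (+): cgctgTGCACACtggcg
Mt1 match 2, chr8:94179086-94179102 (+): agctcTGCACTCcgccc
Mt1 match 3, chr8:94179104-94179120 (+): aaaagTGCGCTCggctc
The start site of the Mt1 window lies inside the listed gene span, so sequence farther on was not searched. The core of the antioxidant response element, TGACNNNGC, at which NRF2 binds, occurred in 12.4% of all windows and, among the 8 members with a window, once in that of Sod1 and once in that of Mt2. These are letter matches in fixed windows, and binding was not measured.

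Mt1 stood at 574.5, 577 and 606 CPM in smooth muscle-like cells, 430.0, 619 and 475 CPM in fibroblast-like cells and 49.0, 77.4 and 99.2 CPM in endothelial-like cells. Smooth muscle-like and fibroblast-like sums overlapped, and every endothelial-like sum lay far below both. Endothelial-like cells differed by a log2 fold change of -2.97 from smooth muscle-like cells (SE 0.15, edgeR adjusted p = 1.12e-08) and of -2.77 from fibroblast-like cells (SE 0.17, edgeR adjusted p = 1.35e-08). Smooth muscle-like and fibroblast-like cells differed by 0.28 (log2, SE 0.11, edgeR adjusted p = 0.0426), below the size of a call.

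Mt2 followed Mt1 at a lower level, with 85.9, 84.3 and 101 CPM in smooth muscle-like cells, 96.4, 105 and 114 CPM in fibroblast-like cells and 10.2, 11.6 and 14.5 CPM in endothelial-like cells. The endothelial-like sums again lay below all others of the wall. The log2 fold changes were -2.89 (SE 0.14, edgeR adjusted p = 1.2e-08) against smooth muscle-like cells and -3.10 (SE 0.20, edgeR adjusted p = 2.32e-08) against fibroblast-like cells. With cells called as doublets kept, the endothelial-like differences were -2.10 (Mt1) and -2.0 (Mt2) against smooth muscle-like cells. Against fibroblast-like cells they were -1.90 (Mt1) and -2.15 (Mt2), and all 4 were still called. Mt1 had 6.33 UMIs for each UMI of Mt2 over all cells (6.34, 6.53 and 5.94 in the 3 sets), 6.44 in smooth muscle-like, 5.77 in fibroblast-like, 6.51 in endothelial-like and 5.28 in T cell-like cells. The endothelial-like value came in part from 28 cells led by the smooth muscle genes Tagln, Acta2 and Myh11. They held 175 of the 521 UMIs of Mt1 and 35 of the 80 of Mt2. In the endothelial-like cluster of 932 cells the value was 8.96, from 25 UMIs of Mt2. Pericyte-like cells stood apart at 17.5, from 175 UMIs of Mt1 and 10 of Mt2, though at 5.00 in the 84 week set. The highest levels of both were in the 17 Schwann-like cells, at 824 CPM of Mt1 (95% Poisson interval 649.5 to 1032) and 195.3 CPM of Mt2 (interval 116 to 309).

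**Figure D2:**
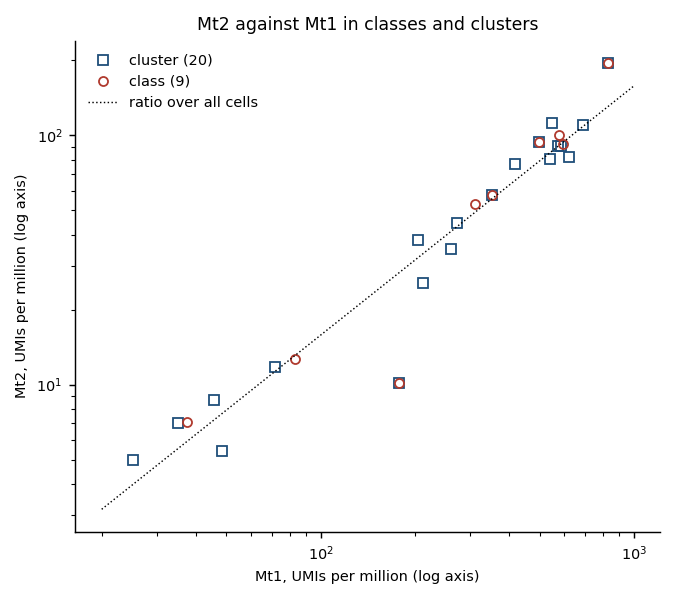
CPM of Mt2 (vertical, log axis) against CPM of Mt1 (horizontal, log axis), all cells of a class (circles, 9) or a cluster (squares, 20 with at least 10 UMIs of Mt2) pooled. The dotted line is the ratio over all cells, 6.33 UMIs of Mt1 for each of Mt2. The pericyte-like cells, at 178 CPM of Mt1 and 10.2 CPM of Mt2, lie farthest below it.

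Over cells thinned to 1000 UMIs, the Pearson correlation of Mt1 and Mt2 counts was 0.14 over 5209 smooth muscle-like cells, 0.18 over 1305 fibroblast-like cells and 0.08 over 1111 endothelial-like cells. These cells share libraries and a mean Mt2 count of 0.0868, 0.1065 and 0.0108 UMIs per thinned cell, so the values describe sparse counts, which hold any correlation low. Among all pairs of the 10 genes, this one had the highest value in both the fibroblast-like and the smooth muscle-like cells, and in endothelial-like cells it came after Sod3 with Mt2.

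Counted over the comparisons, 6 of the 10 genes were called between endothelial-like and smooth muscle-like cells, 2 higher (Gpx3 and Hmox1) and 4 lower (Sod3, Gpx1, Mt1 and Mt2). Of all 10696 genes tested there, 15.4% were called higher and 15.2% lower. Between smooth muscle-like and fibroblast-like cells 2 were called higher (Sod3 and Gpx1) and 2 lower (Gpx3 and Hmox1), beside 9.89% and 12% of 9894 genes. Between endothelial-like and fibroblast-like cells 4 were called, all lower (Sod3, Gpx3, Mt1 and Mt2), beside 12.7% called higher and 14.6% lower of 9454 genes. The median log2 fold changes of the 10 genes in these comparisons were -0.20, 0.06 and -0.08, beside 0.01, -0.03 and 0.00 over all genes. The 3 comparisons share their groups pairwise and are not independent.

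**Figure D3:**
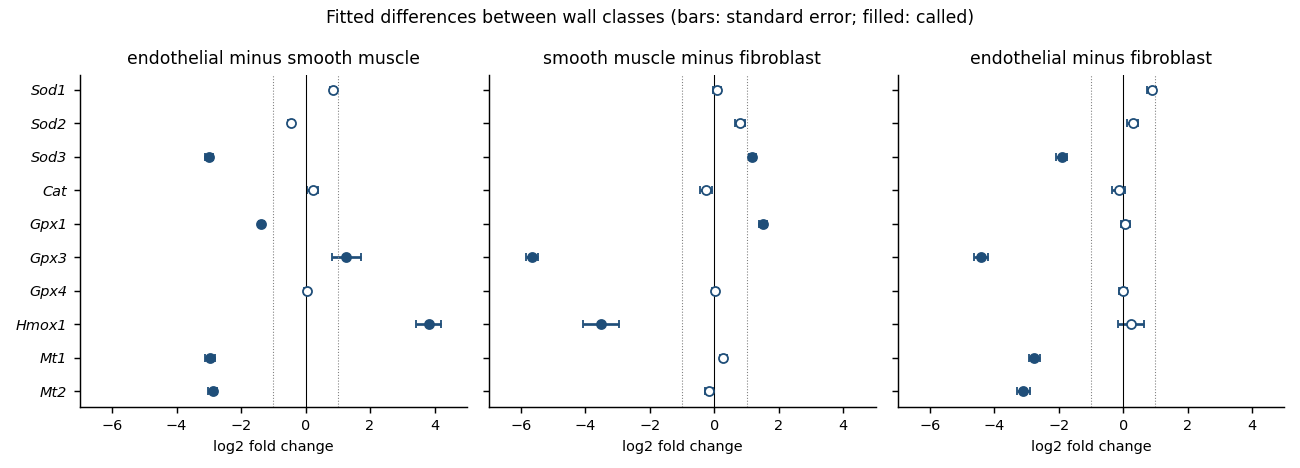
Log2 fold change of each gene (horizontal axis) with its standard error in the 3 comparisons of wall classes, 3 sets per class. Filled circles are called and open circles are not, and dotted lines mark the required absolute log2 fold change of 1. Sod3 runs from -2.99 to 1.17, Gpx3 reaches -5.66, and the Gpx4 values of 0.04, 0.02 and -0.01 lie at 0.

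Other values moved with these class differences, and their part in the results was not tested. The summed level of 18 dissociation stress genes (immediate early and heat shock genes) was 4938 to 6439 CPM in the endothelial-like sums, 4217 to 4663 CPM in the smooth muscle-like sums and 2294 to 2492 CPM in the fibroblast-like sums. The summed level of 10 glucocorticoid-responsive genes was 1323 to 2362, 644 to 669 and 782 to 1117 CPM in the same order. Median depth per cell was 4187 UMIs for endothelial-like cells, 11258 for smooth muscle-like cells and 7558 for fibroblast-like cells. The summed level of 9 erythroid markers was 9797 to 17363 CPM in the endothelial-like sums, 642 to 1511 CPM in those of smooth muscle-like cells and 1385 to 6062 CPM in those of fibroblast-like cells. All 10 smooth muscle markers were detected in endothelial-like cells, with a summed level of 2749 to 3539 CPM against 37472 to 40208 CPM in smooth muscle-like cells.

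Among endothelial-like cells, the genes differed between the cluster led by Gpihbp1, Fabp4 and Cd36 (932 cells) and that led by Cytl1, Ccl21a, Ptprb and Vwf (125 cells). Sod3 was at 28.0, 18.9 and 27.7 CPM in the first and at 228, 232 and 225 CPM in the second, with no overlap. The log2 fold change of the first over the second was -3.17 (SE 0.20, edgeR adjusted p = 9.21e-09). The level in the first cluster, 24.7 CPM pooled (95% Poisson interval 20.4 to 29.6), did not exceed that of T cell-like cells, 28.0 CPM (interval 24.6 to 31.6), and was read as background.

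Mt1 stood at 35.9, 50.1 and 53.4 CPM in the Gpihbp1 cluster and at 118.5, 264 and 216 CPM in the Cytl1 cluster, also with no overlap. The Gpihbp1 cluster was lower by a log2 fold change of -2.05 (SE 0.19, edgeR adjusted p = 5.74e-07). Mt2 was at 6.12, 3.34 and 6.40 CPM against 31.9, 60.4 and 36.3 CPM (log2 fold change -2.99, SE 0.41, edgeR adjusted p = 3e-05), the first values no higher than the 7.10 CPM of T cell-like cells. Hmox1 went the other way, with 19.2, 18.9 and 12.8 CPM in the Gpihbp1 cluster and 4.56, 0.00 and 5.44 CPM in the Cytl1 cluster (log2 fold change 2.14, SE 0.63, edgeR adjusted p = 0.0146). The Cytl1 cluster held 6 UMIs of Hmox1 over all its cells, and the call was lost with DESeq2 (adjusted p = 0.121) and without the 84 week set (edgeR adjusted p = 0.106). Gpx1 and Cat were lower in the Gpihbp1 cluster by log2 fold changes of -0.82 (SE 0.16, edgeR adjusted p = 0.000643) and -0.93 (SE 0.26, edgeR adjusted p = 0.0104), below the size of a call. In all, 1 of 9 genes tested was called higher and 3 lower, beside 10.7% and 13% of 8006 genes. Gpx3 did not pass the filter on low counts.

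A sub-cluster of 28 endothelial-like cells was led by Tagln, Acta2 and Myh11, and smooth muscle markers summed to 10538 CPM in the Cytl1 cluster. Sub-clusters in which T cell, erythroid or smooth muscle markers scored highest, at 1.5 or more, were then left out as mixed. The log2 fold changes became -2.59 for Sod3, -1.57 for Mt1 and -2.04 for Mt2. All were still called (edgeR adjusted p from 4.87e-06 to 0.00508), and Cat was called at -1.08 (edgeR adjusted p = 0.0117). Kept in were a sub-cluster of 60 cells led by Rgs5, where pericyte markers scored highest (2.30), and one of 14 cells, where fibroblast markers did (1.52). The sub-cluster of 86 cells led by Cytl1 and Sfrp1 held 148 CPM of Sod3 (107, 116.5 and 186 CPM in the sets), 136 CPM of Mt1 and 352.5 CPM of Sod1. Its smooth muscle markers summed to 809 CPM, against 1774 CPM in the Gpihbp1 cluster. Its fibroblast markers summed to 1642 CPM against 220 CPM and were the markers that scored highest in it, and its erythroid markers summed to 3142 CPM against 19851 CPM. The part of these in the result was not tested.

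**Figure D4:**
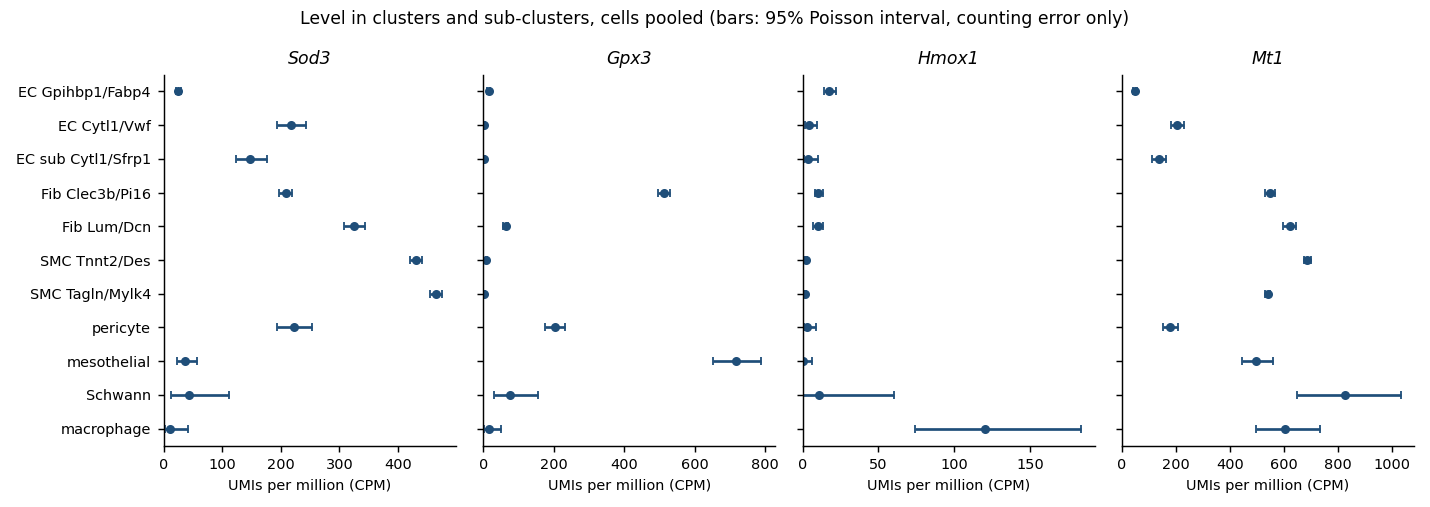
CPM (horizontal, linear axis from 0) of Sod3, Gpx3, Hmox1 and Mt1 in 11 clusters and sub-clusters, named by class and leading genes (EC, endothelial-like; Fib, fibroblast-like; SMC, smooth muscle-like), all cells pooled. Bars are 95% Poisson intervals for counting error alone. Gpx3 peaks in the mesothelial-like (718 CPM) and Clec3b/Pi16 fibroblast-like (513 CPM) cells and Hmox1 in the macrophage-like sub-cluster (120 CPM).

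The fibroblast-like clusters were split by Gpx3. The cluster led by Clec3b, Pi16 and Dcn (765 cells) held 411, 424 and 366 CPM, and that led by Lum, Dcn and Serpinf1 (540 cells) held 55.0, 52.3 and 26.1 CPM. The sums did not overlap, and the log2 fold change was 3.12 (SE 0.25, edgeR adjusted p = 1.59e-06, higher in 3 of 3 sets). Gpx3 was the 1 gene called of 9 tested, beside 3.84% called higher and 2.86% lower of 4059 genes. Mt1, at 462, 553 and 538 CPM in the Clec3b cluster and 378, 724 and 322 CPM in the Lum cluster, overlapped (log2 fold change 0.14, SE 0.21, edgeR adjusted p = 0.83). Mgst1, a membrane-bound glutathione transferase, was called higher with Gpx3 in the Clec3b cluster (log2 fold change 1.03, SE 0.19, edgeR adjusted p = 0.00274).

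No gene of the 10 was called in the comparisons of smooth muscle-like clusters given here. Of the 8 genes tested, 0 were called by edgeR or DESeq2 between the cluster with T cell RNA and that led by Tagln, Acta2 and Cnn1 (3.15% of 6961 genes called higher and 0.0431% lower). The same held for the cluster led by Tnnt2, Des and Actc1 against the Tagln cluster (0.651% of 6295 genes higher, 0.477% lower), a comparison chosen after the clusters were seen. In the first of these comparisons Sod2 and Gpx1 had an unadjusted edgeR p under 0.05, which adjustment removed (edgeR adjusted p = 0.118 and 0.0942). Gpx4 did likewise in the second (edgeR adjusted p = 0.126). Sod3 stood at 492, 359.5 and 466 CPM in the Tnnt2 cluster and at 526, 420 and 469 CPM in the Tagln cluster, and these sums overlapped. Within sets it was lower in the Tnnt2 cluster in 3 of 3 (log2 fold change -0.12, SE 0.10, edgeR adjusted p = 0.717).

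Erythroid-like cells, named from their globin genes, had the highest Gpx1 of all classes, with 1297, 1281 and 905 CPM in the 3 sets against 99.8, 101 and 108 CPM in T cell-like cells. The log2 fold change was 4.43 (SE 0.28, edgeR adjusted p = 1.42e-08) and stayed between 3.45 and 4.66 under the alternatives run. Of 7 genes tested 5 were called, all higher (Sod3, Cat, Gpx1, Gpx4 and Mt1), beside 12.2% called higher and 8.24% lower of 5075 genes. Cat and Gpx4 were higher in only 2 of 3 sets. Sod1 was lower in 3 of 3 sets and not called (log2 fold change -0.54, SE 0.33, edgeR adjusted p = 0.306). Sod1 was called lower with clusters made from cells of exactly 1 hashtag (-1.36, edgeR adjusted p = 0.00155). The same held for Sod1 by library size alone (-1.54, edgeR adjusted p = 0.000738). Sod3 was no longer called with clusters made from cells of exactly 1 hashtag (log2 fold change 1.14), and the Gpx4 call was lost under most alternatives. Among them were fits without the 81 week set (0.84) or the 88 week set (1.10, edgeR adjusted p = 0.171), with no filter on low counts (0.86), in 1 fit over all classes (0.92), at 2 times the hashtag cutoff (0.85) and with clusters of cells of exactly 1 hashtag (0.23). With clusters of cells of exactly 1 hashtag, erythroid-like sums existed for the 84 and 88 week sets only (113 and 31 cells). The same held at 2 times the hashtag cutoff (17 and 13 cells), so these fits also lacked the 81 week set of that class. The class was mixed: 10 of 10 smooth muscle markers were detected, with a summed level of 26079, 7499 and 12601 CPM in the sets. Sod3 stood in the same order (356, 121 and 183 CPM). Smooth muscle markers scored highest in the sub-clusters of 72, 103 and 24 cells. T cell markers did so in those of 59 and 92 cells. The remaining sub-cluster, of 49 cells, had 6, 3 and 4 cells in the sets, too few for a sum. The comparison could therefore not be run without the mixed sub-clusters. The Gpx1 level was 853 and 1440 CPM in the sub-clusters led by Cd8b1 and Ptprc, where Sod3 was 14.3 and 36.9 CPM and Mt1 35.7 and 34.2 CPM. Those Sod3 and Mt1 levels lie near the 28.0 and 37.5 CPM of T cell-like cells. The scaling mattered here. By library size alone, the median of all genes moved to -1.05, the log2 fold changes of Cat and Gpx4 became 0.49 and 0.12, and calls went to 389 higher and 2595 lower, from 620 and 418.

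The wider redox lists placed these genes among their partners. Of 18 peroxiredoxin and thioredoxin genes 17 were tested between endothelial-like and smooth muscle-like cells, 1 called higher and 5 lower, with a median log2 fold change of -0.32 beside 0.01 over all genes. Txnip, the thioredoxin inhibitor, was higher in endothelial-like cells (log2 fold change 2.45, SE 0.10, edgeR adjusted p = 1.81e-09), and Sesn3, a stress-induced sestrin, was lower (-1.95, SE 0.16, edgeR adjusted p = 7.1e-07). Of 18 genes of glutathione synthesis, reduction and transfer tested (of 20), 2 were called higher and 5 lower, led by the cystine transporter subunit Slc3a2 (1.70) and the transferase Gstm5 (-1.83). Of 15 other glutathione peroxidase and selenoprotein genes tested (of 18), 2 were higher and 3 lower, led by the selenium carrier Selenop (1.55) and the peroxidase Gpx8 of the endoplasmic reticulum (-2.81).

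In the same comparison 1 of 14 NRF2 regulators and targets tested (of 15) was called, and it was lower. Of 12 haem and iron genes tested (of 15), 3 were higher and 2 lower, with opposite calls for the 2 ferritin chains, Ftl1 (log2 fold change 1.39, SE 0.08, edgeR adjusted p = 3.11e-08) and Fth1 (-1.75, SE 0.06, edgeR adjusted p = 5.58e-10). Of 10 metal response and zinc transport genes tested (of 14), 2 were called, both higher. Slc30a1, the zinc exporter that like the metallothioneins is an MTF1 target, was higher in endothelial-like cells, at 56.4 CPM against 11.9 CPM (log2 fold change 2.22, SE 0.16, edgeR adjusted p = 2.69e-07), the reverse of Mt1 and Mt2. Among the 11 genes tested (of 19) that produce reactive oxygen or nitric oxide, 4 were higher and 3 lower, with Xdh (xanthine dehydrogenase) at 6.40 and the oxidase Nox4 at -3.56. Of 17 peroxisome genes tested (of 20) 1 was higher and 1 lower (Pmp22, -1.44, which encodes a peripheral myelin protein and no peroxisomal one), and of the 6 dismutase and copper genes only Sod3 was called.

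Between smooth muscle-like and fibroblast-like cells, 4 of 16 glutathione genes tested were lower and 2 higher, with the transferase Mgst1 at -2.94 (SE 0.12, edgeR adjusted p = 2.35e-16). Of 15 glutathione peroxidase and selenoprotein genes, 1 was higher (Msrb1, a methionine sulfoxide reductase, 2.77) and 2 lower, among them Gpx7 (-1.60). Of 12 haem and iron genes, 1 was higher and 4 lower, among them the metalloreductase Steap4 at 0.219 against 55.3 CPM. Nox4 was at 1.5 and Xdh at -5.39. Txnip was at -1.87 and was the only 1 of 17 peroxiredoxin and thioredoxin genes called. For endothelial-like over fibroblast-like cells, 7 of 15 glutathione genes tested were lower and 1 higher, with a median of -0.99 beside 0.00 over all genes, led by Gstm5 (-3.47, SE 0.18, edgeR adjusted p = 1.94e-09). Gpx8 stood at -3.45, Slc30a1 at 2.57, the endothelial nitric oxide synthase Nos3 at 5.27 and Cyp1b1 at -2.49.

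For the endothelial-like clusters, Cp (ceruloplasmin, the copper-carrying ferroxidase) was lower in the Gpihbp1 cluster by a log2 fold change of -4.90 (5.45 against 161 CPM, SE 0.38, edgeR adjusted p = 6.17e-08) and Mgst1 by -1.69. The cytochrome P450 gene Cyp1b1 was also called lower, at 1.24 against 109.8 CPM. Xdh was higher there by 4.80 (228 against 7.72 CPM, SE 0.30, edgeR adjusted p = 5.91e-09), and Slc30a1 by 1.16 (SE 0.27, edgeR adjusted p = 0.00311). Of 14 peroxiredoxin and thioredoxin genes tested 1 was called (Prdx5, -1.07). Of the 18 dissociation stress genes 9 were higher and 2 lower in that cluster, with a summed level of 5308 to 7872 CPM against 2671 to 3493 CPM in the Cytl1 cluster. Of the 10 glucocorticoid-responsive genes 8 were tested, 4 called higher and 0 lower by edgeR, with a summed level of 1435 to 2717 CPM against 630 to 720 CPM. Erythroid markers summed to 11078 to 21328 CPM against 708 to 5554 CPM. The part of these in the Hmox1 and metallothionein differences was not tested.

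Over 19 sums of a class and a set, the genes whose level was most like that of each member were found among 6975 genes by Pearson's r of log2(CPM + 10). This is a description, since sums of a class share their animals and cells. Mt1 and Mt2 were each other's closest gene (r = 0.94), followed by Rhoq and Nfix for Mt1 and by Epdr1 and Abi3bp for Mt2. Sod3 was closest to Ltbp1 (0.97), Lhfp and Pi15, and Gpx3 to Podn (0.96), Bicc1 and C1ra. Gpx1 was closest to Map1lc3b (0.92), Specc1 and Csrp2, Gpx4 to Fdx1 (0.91), Phyh and Zfp36l1, and Hmox1 to Shisa5 (0.93), Adh1 and Ier2. Sod1 was closest to Rps27 (0.87), Lamtor5 and Rpl41, and Sod2 to Aktip (0.86), Sel1l and 1810037I17Rik. Cat had no close match, with 1700094D03Rik at 0.66, Reep6 at 0.55 and Scgb1a1 at 0.53. Between members other than the metallothioneins, the highest value was that of Sod3 with Gpx1 (0.76) and the lowest that of Sod1 with Gpx1 (-0.57).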

How the data were processed

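The authors' deposited matrix holds raw UMI counts for 32285 genes and 3 hashtags in 26916 barcodes, made with Cell Ranger 6.0.1 per the file headers. The submitters' processing notes name Cell Ranger, Seurat 4.0.5 and build mm10. How reads matching several genes were counted is not given in the sources used here. Kept barcodes had at least 500 genes, at least 1000 UMIs and under 15% mitochondrial UMIs (11301). Hashtags were called with HTODemux (Seurat 5.3.0, quantile 0.99), at 129, 765 and 266 UMIs. Scrublet (scanpy 1.11.5) called 360 doublets (3.19%), which were removed together with cells of several hashtags. Of 10408 cells left, 4175 had 1 hashtag and 6233 none; the latter entered pooled levels, not tests or set sums.

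Cells were clustered (2000 variable genes, 30 components, Leiden resolution 0.8) without the members, listed redox genes, mitochondrial and ribosomal genes. Clusters were named from marker scores of at least 1.5 with at least 3 markers raised 2-fold, limits set after seeing the data. Sums per class and hashtag set (at least 10 cells) were tested with edgeR 4.0.16 (quasi-likelihood F test, TMM, the animal as a block, Benjamini-Hochberg over all genes tested). Genes were called where the adjusted p was below 0.05 and the log2 fold change was 1 or more in size. The standard error is the log2 fold change divided by the root of F. On simulated counts, 100% of 200 genes changed by a log2 of 2 were recovered in each comparison of wall classes. Unchanged genes called numbered 2, 3 and 6. The changed genes were drawn above a minimum level, with a fixed spread and no animal effect. Rare genes and changes near the threshold of 1 were therefore not covered. The block comes from the design, as same-numbered sums come from 1 animal. Poisson and binomial intervals (95%) cover counting error only.

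The members and lists were chosen with earlier results of these data known. List genes named in the text are the called ones with the largest absolute log2 fold change in each direction and list, at 50 CPM or more in 1 of the groups; others given beside them were chosen after their values were seen. Promoter windows and gene positions are RefSeq's (GRCm38.p6). Alternatives tried were DESeq2 1.42.0, no filter on low counts, no block, each set left out, library size scaling, 1 fit over all classes, under 10% mitochondrial UMIs, doublets kept, hashtags at 2 times the cutoff, no cells with T cell RNA, and clusters of cells with 1 hashtag. Leaving out mixed clusters and the library size scaling were chosen after seeing the data. A further comparison of smooth muscle-like clusters and 1 peroxisome gene are not reported here.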

Additional observations from a re-analysis of the deposited data

How the results depend on the processing

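Depth limits the rarer genes: Hmox1 had 97 UMIs in all smooth muscle-like cells, and Gpx3 had 76, Mt2 80 and Hmox1 87 in all endothelial-like cells. The differences in Sod3, Gpx1 (where called), Mt1 and Mt2 between wall classes kept their calls under every alternative run. The cause of the changes below was not tested. The Gpx3 call of endothelial-like over smooth muscle-like cells was also lost at under 10% mitochondrial UMIs (0.65), without cells holding T cell RNA (0.87) and without the smooth muscle-like cluster with T cell RNA (0.96). Sod1 passed the fold threshold for endothelial-like over fibroblast-like cells with no filter on low counts (1.01), at 2 times the hashtag cutoff (1.00) and without cells holding T cell RNA (1.07). Sod2 was called for smooth muscle-like over fibroblast-like cells without the smooth muscle-like cluster with T cell RNA (1.01, edgeR adjusted p = 2.04e-05).

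Calls between smooth muscle-like and fibroblast-like cells went from 2167 (21.9% of 9894 tested) to 1098 (20.8% of 5280) at 2 times the hashtag cutoff. Without cells holding T cell RNA they were 1275 (23.2% of 5487). That setting took calls between endothelial-like and fibroblast-like cells from 2577 (27.3% of 9454) to 1662 (27.9% of 5962). Erythroid-like over T cell-like calls (1038, 20.5% of genes tested) were 1747 (10.1%) with no filter and 2984 (58.8%) by library size. In 1 fit over all classes they were 2450 (21.6%), and 1603 (23.2%) at under 10% mitochondrial UMIs. At 2 times the hashtag cutoff they were 206 (11.2%), with 1 called of the 3 members tested. Clusters of cells with exactly 1 hashtag gave 611 (10.1%), of which 37.6% were higher, against 59.7%. Neither of these settings, nor that of under 10% mitochondrial UMIs, had an erythroid-like sum at 81 weeks. With a set left out, calls ran from 484 (16.2%, without 84 weeks, 78.9% of them higher) to 1632 (18.8%, without 81 weeks). For the smooth muscle-like cluster with T cell RNA, calls went from 222 (3.19%) to 127 (1.82%, DESeq2) and 389 (2.32%, no filter). For the Tnnt2 cluster they went from 71 (1.13%) to 24 (0.381%, DESeq2). DESeq2 took the fibroblast-like clusters from 272 (6.70%) to 138 (3.40%).

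Signs turned only for differences that were not called. For endothelial-like over smooth muscle-like cells, leaving out a set gave -0.035 to 0.35 for Cat and -0.0098 to 0.068 for Gpx4, which was -0.018 at under 10% mitochondrial UMIs, -0.021 without cells holding T cell RNA and -0.0915 without the cluster with T cell RNA. For smooth muscle-like over fibroblast-like cells, Cat was 0.20 at 2 times the cutoff, and Gpx4 -0.065 by library size, -0.14 at 2 times the cutoff and -0.23 without cells holding T cell RNA. For endothelial-like over fibroblast-like cells, Cat was 0.032 in 1 fit and 0.25 at 2 times the cutoff. Gpx1 there was -0.11 to 0.22 with a set left out, -0.10 without cells holding T cell RNA, -0.15 with clusters of cells with exactly 1 hashtag and -0.13 without mixed sub-clusters. Gpx4 was -0.059 to 0.056 with a set left out, 0.12 with no filter, 0.093 in 1 fit, 0.0715 with doublets kept and 0.030 without mixed sub-clusters, and Hmox1 was -0.32 to 0.65 and, at under 10% mitochondrial UMIs, -0.066. Library size scaling gave -0.16 for Sod2 in erythroid-like cells, -0.013 for Sod2 in endothelial-like clusters and 0.013 for Mt2 in the cluster with T cell RNA. With a set left out, Sod2 ran from -0.060 to 0.17 in endothelial-like clusters. In fibroblast-like clusters Sod1 ran from -0.10 to 0.29, Sod2 from -0.0175 to 0.45, Gpx4 from -0.43 to 0.0084 and Mt1 from -0.074 to 0.50. In the cluster with T cell RNA Sod1 ran from -0.10 to 0.21 and Mt2 from -0.37 to 0.36. In the Tnnt2 cluster Cat ran from -0.27 to 0.32, Gpx1 from -0.062 to 0.13, Mt1 from -0.11 to 0.48 and Mt2 from -0.40 to 0.25.

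Without the replicate block by animal, 3264, 2165, 2542 and 1125 genes were called in the 4 comparisons of classes, in the order given above. These were 30.5%, 21.9%, 26.9% and 22.2% of the genes tested. Of the members 6, 4, 4 and 5 were called, of 10, 10, 10 and 7 tested, the counts with the block. The planned comparison of T cell-like clusters was not run, since 1 of them had 9 cells at 81 weeks.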

Other observations

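A cluster of 98 cells led by Cytl1, Ecrg4, Dcn, Prg4 and Comp was left without a class name, since chondrocyte and fibroblast markers both scored high in it. It held 126 CPM of Gpx3 and 163 CPM of Sod3 over all its cells. A neutrophil-like sub-cluster of 20 cells led by S100a9, S100a8 and Ngp held 988 CPM of Gpx1. The macrophage-like sub-cluster of 30 cells held 605 CPM of Mt1 (106 UMIs) beside 22.8 CPM of Mt2 (4 UMIs), which is 26.5 UMIs of Mt1 for each of Mt2. It held 628 CPM of Gpx1 and 11.4 CPM of Sod3. Among erythroid-like cells the sub-cluster led by Penk, Gpihbp1 and Igfbp5 (49 cells) had the highest Gpx1, at 2235 CPM (95% Poisson interval 2041 to 2443).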
